A study of Homo sapiens with 5 samples.

Results

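TRIB1, TRIB2, TRIB3, COP1, CEBPA, CEBPB, CEBPD and CEBPG encode the Tribbles pseudokinases, the ubiquitin ligase they work with and the C/EBP transcription factors around them. Every probe set annotated to a single one of these symbols was taken, which gave 15 probe sets for 8 genes, of 54675 probe sets on the array and 19775 genes with a probe set of their own. RNA came from PC-3, a human prostate cancer cell line derived from a bone metastasis, on 5 Affymetrix arrays. The arrays held 1 line with the hairpin shTRIB1-1 and 1 with the hairpin shTRIB1-2, both directed at TRIB1, 1 line with a hairpin against GFP (shGFP), 1 spheroid culture without a hairpin and 1 normal 2D culture without a hairpin. The study asked which genes depend on growth in 3 dimensions and which depend on TRIB1. The labels describe growth in dishes for all 5 samples, the spheroids included, and do not say whether the lines were single clones or the cultures independent.

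Tribbles proteins have a kinase-like domain that holds a substrate and a carboxy-terminal tail that binds COP1, so that the substrate is brought to the ligase and ubiquitinated. C/EBP alpha is the best known substrate of TRIB1 and TRIB2, while TRIB3 is known for its induction under amino acid and endoplasmic reticulum stress and for binding AKT and ATF4. C/EBP proteins are basic leucine zipper (bZIP) factors that bind DNA as pairs, with C/EBP beta and C/EBP delta linked to inflammation and C/EBP gamma a partner of ATF4.

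The log2 of the deposited intensity is called the level, and a difference of 1 is 2-fold. Of the 15 probe sets, 9 were at a level of at least 6 on all 5 arrays, and they cover 6 genes. The other 6 probe sets lay between 3.17 and 5.65 on every array and include all those of COP1 and CEBPA. The filter at 6 is no detection call: the probe set of the prostate gene KLK3 gave 6.90 on all 5 arrays. For each gene the probe set of highest mean level is called the leading one, and the others are given beside it. Levels of different probe sets are not set against each other. Only the hairpins against TRIB1 offer 2 arrays of 1 group, and they carry different hairpins, so the gap between them is the sole measure of spread. A p-value then reflects the spread between these arrays, which may be technical. Differences in the number of cells that express a gene and in RNA per cell cannot be told apart in such bulk RNA.

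Median intensity was between 32.97 and 33.36 on the 5 arrays. The ratio of 5′ to 3′ signal for actin was 0.445, 0.442 and 0.436 on the shTRIB1-1, shTRIB1-2 and shGFP arrays, 0.131 on the spheroid array and 0.184 on the 2D array. The GAPDH ratio was lowest on the spheroid array too, at 0.763 against 0.895 on the 2D array, and between 0.929 and 0.944 on the hairpin arrays. For the spiked-in control thr the ratio was 0.269, 0.217 and 0.264 on the shTRIB1-1, shTRIB1-2 and shGFP arrays. On the spheroid and 2D arrays the thr spike gave 0.0913 and 0.113. The epithelial markers KRT8, KRT18, EPCAM and CDH1 were between 9.39 and 13.19 on all arrays. KRT8, KRT18 and EPCAM were lower in spheroids than in 2D, with differences of -0.78, -0.57 and -0.37, and CDH1 differed by 0.084. The leukocyte markers PTPRC, CD14 and LYZ, the fibroblast markers DCN, LUM and PDGFRA and the endothelial markers VWF and CDH5 were all below 6. The endothelial marker PECAM1 was at 5.70, 6.31 and 6.62 on the shTRIB1-1, shTRIB1-2 and shGFP arrays, 9.53 on the spheroid array and 7.57 on the 2D array. The part of these markers in the results was not tested. Of the prostate luminal markers, KLK2 was below 6 on all arrays and TMPRSS2 lay between 5.62 and 7.09. The red cell marker HBB lay between 6.15 and 6.25.

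**Figure D1:**
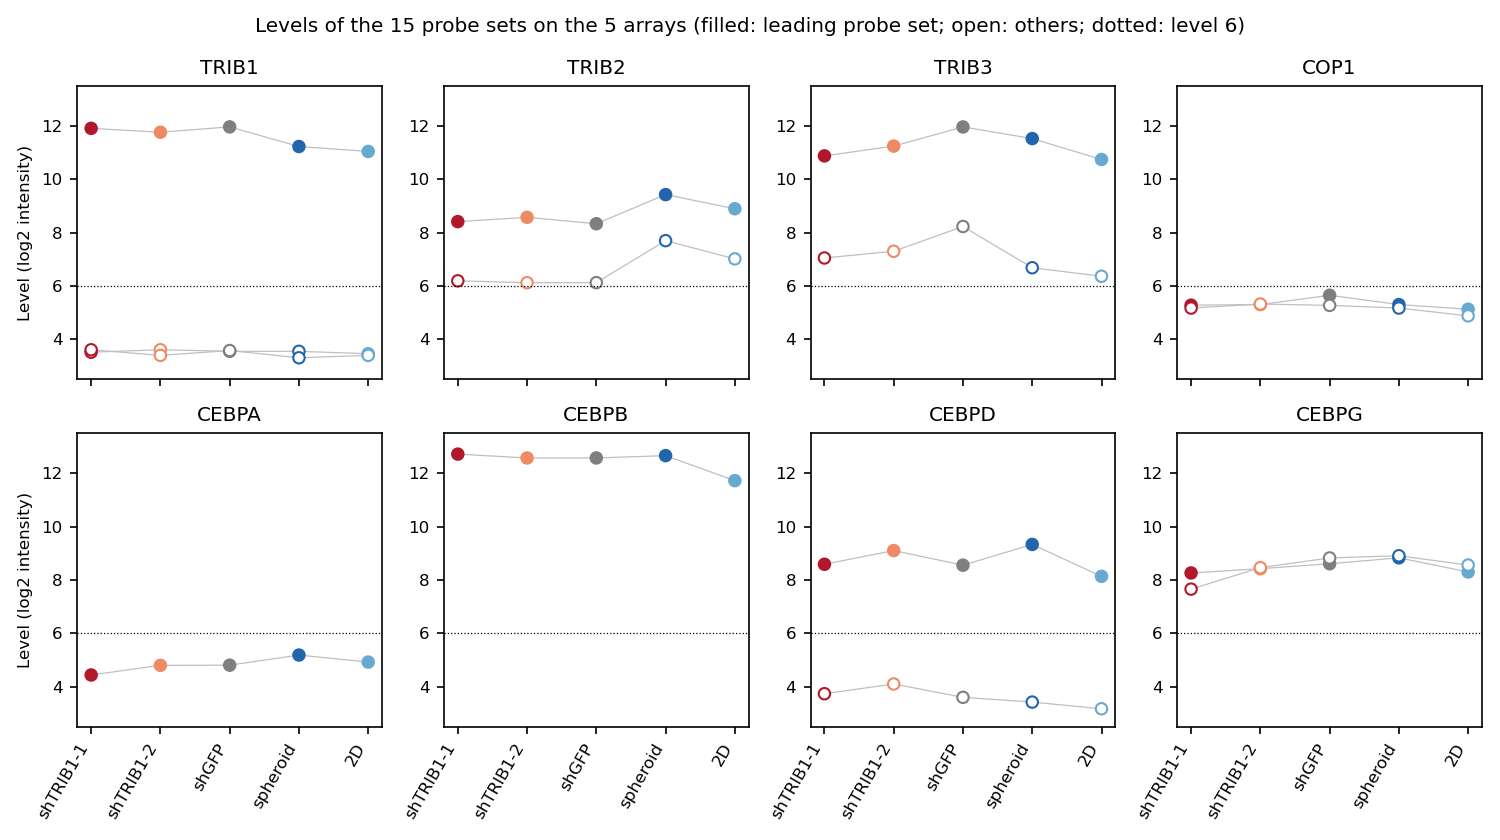
Level (log2 intensity, y axis) of every probe set of the 8 genes on the arrays shTRIB1-1, shTRIB1-2, shGFP, spheroid and 2D (x axis). Filled points are the leading probe set, open points the others, and the dotted line is the level filter of 6. The leading TRIB1 probe set lies between 11.04 and 11.97 on the 5 arrays, and both COP1 probe sets and that of CEBPA lie below 6 on every array.

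TRIB1, the pseudokinase targeted by the hairpins, was compared first because it checks the labels. Its leading probe set (202241_at) was at 11.91 on the shTRIB1-1 array and 11.76 on the shTRIB1-2 array, against 11.97 on the shGFP array. The shTRIB1-1 and shTRIB1-2 arrays differed from shGFP by -0.055 and -0.20, a mean of -0.13 ± 0.10 (SD, n = 2 hairpins), and limma did not call it (adjusted p = 0.966). The gap between the hairpins was 0.15, so the shTRIB1-1 array lay closer to shGFP than to the shTRIB1-2 array. The other TRIB1 probe sets (235641_at and 239818_x_at) were between 3.30 and 3.60 on every array and give no usable level. Where on the transcript the probes and the hairpin targets lie was not analysed here. The arrays labelled with the 2 hairpins against TRIB1 are called the labelled arrays in what follows, since this signal does not check their label.

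TRIB1 was at 11.23 on the spheroid array and 11.04 on the 2D array, a difference of 0.19. With 2D and shGFP averaged as the reference, the spheroid array was lower, at -0.28. The larger contrast lay between the lines, at 11.97 for shGFP against 11.04 for 2D, a difference of 0.92 or 1.89-fold. In the order of levels, shGFP, shTRIB1-1 and shTRIB1-2 followed each other by no more than the gap between the hairpins, and spheroid and 2D came 0.54 below them and 0.19 apart. All 3 hairpin arrays thus had more TRIB1 signal than both arrays without a hairpin. Of all genes, 13.8% were split in that direction. The 5′ to 3′ ratios of actin, GAPDH and the thr spike split the arrays the same way. The part of these ratios in the TRIB1 split was not tested.

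TRIB2, a relative of TRIB1 that also recruits COP1 to C/EBP alpha, showed the opposite split. Its leading probe set (202478_at) was at 8.41 on the shTRIB1-1 array, 8.57 on the shTRIB1-2 array and 8.33 on the shGFP array. On the arrays without a hairpin it was at 9.42 in spheroids and 8.89 in 2D. Every hairpin array therefore lay below both others, as did 12.5% of all genes. The actin, GAPDH and thr spike 5′ to 3′ ratios of these 3 arrays were higher. The other TRIB2 probe set (202479_s_at) gave 6.19, 6.12 and 6.12 on the shTRIB1-1, shTRIB1-2 and shGFP arrays, 7.70 in spheroids and 7.01 in 2D. It was split in the same way, as were 14.2% of all probe sets and the marker PECAM1.

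The spheroid array exceeded the 2D array by 0.53 (1.44-fold) on the leading TRIB2 probe set and by 0.68 (1.61-fold) on the other. Between the hairpins against TRIB1 and shGFP the leading probe set differed by 0.079 and 0.24, a mean of 0.16 ± 0.11 (SD, n = 2 hairpins), which limma did not call (adjusted p = 0.966). Against 2D the shGFP array was lower by both probe sets, with differences of -0.56 and -0.89. None of these TRIB2 differences reached 2-fold. In the order of levels, spheroid stood 0.53 above 2D and 2D stood 0.32 above the hairpin arrays, both more than the gap of 0.16 between the hairpins, and the 3 hairpin arrays followed each other within it.

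TRIB3, the stress-induced family member, had the largest mean difference from shGFP among the leading probe sets of the 8 genes. Its leading probe set (218145_at) was at 10.88 on the shTRIB1-1 array and 11.25 on the shTRIB1-2 array, against 11.96 on the shGFP array. The other TRIB3 probe set (1555788_a_at) was at 7.05 and 7.30 on these arrays, against 8.23 on the shGFP array. Both labelled arrays were below shGFP on both probe sets.

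The leading TRIB3 probe set differed from shGFP by -1.09 with shTRIB1-1 and -0.72 with shTRIB1-2, a mean of -0.90 ± 0.26 (SD, n = 2 hairpins). The other differed by -1.18 and -0.93, a mean of -1.06 ± 0.18 (SD, n = 2 hairpins). At least 2-fold lower with shTRIB1-1 were 1.86% of genes and 1.73% of probe sets. Limma called neither TRIB3 probe set (adjusted p = 0.966 for both). The fit has 1 residual degree of freedom, the gap between the hairpins. It called 0 of 18246 probe sets (0.0%), 599 (3.28%) had an unadjusted p under 0.05, and the second TRIB3 probe set was among these.

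TRIB3 was lower still on the 2D array, at 10.74 on the leading probe set and 6.36 on the other. Against 2D the labelled arrays were higher, by 0.14 and 0.50 on the leading probe set and by 0.69 and 0.94 on the other. The shGFP array was the highest of the 5 on both, 1.22 above 2D (2.33-fold) on the leading probe set and 1.87 (3.65-fold) on the other. At least 2-fold higher in shGFP than in 2D were 2.13% of genes and 1.96% of probe sets. The contrasts of the labelled arrays with shGFP and of shGFP with 2D share the single shGFP array, which enters them with opposite signs.

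In spheroids TRIB3 was at 11.53, against 10.74 in 2D, a difference of 0.78 (1.72-fold). The other probe set was at 6.68 in spheroids and 6.36 in 2D, a difference of 0.32. On the leading probe set shGFP stood 0.44 above spheroid, more than the gap of 0.37 between the hairpins, and the other neighbours in the order of levels were within that gap. The order depended on the probe set. The spheroid array was above both labelled arrays on the leading one and below both on the other.

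**Figure D2:**
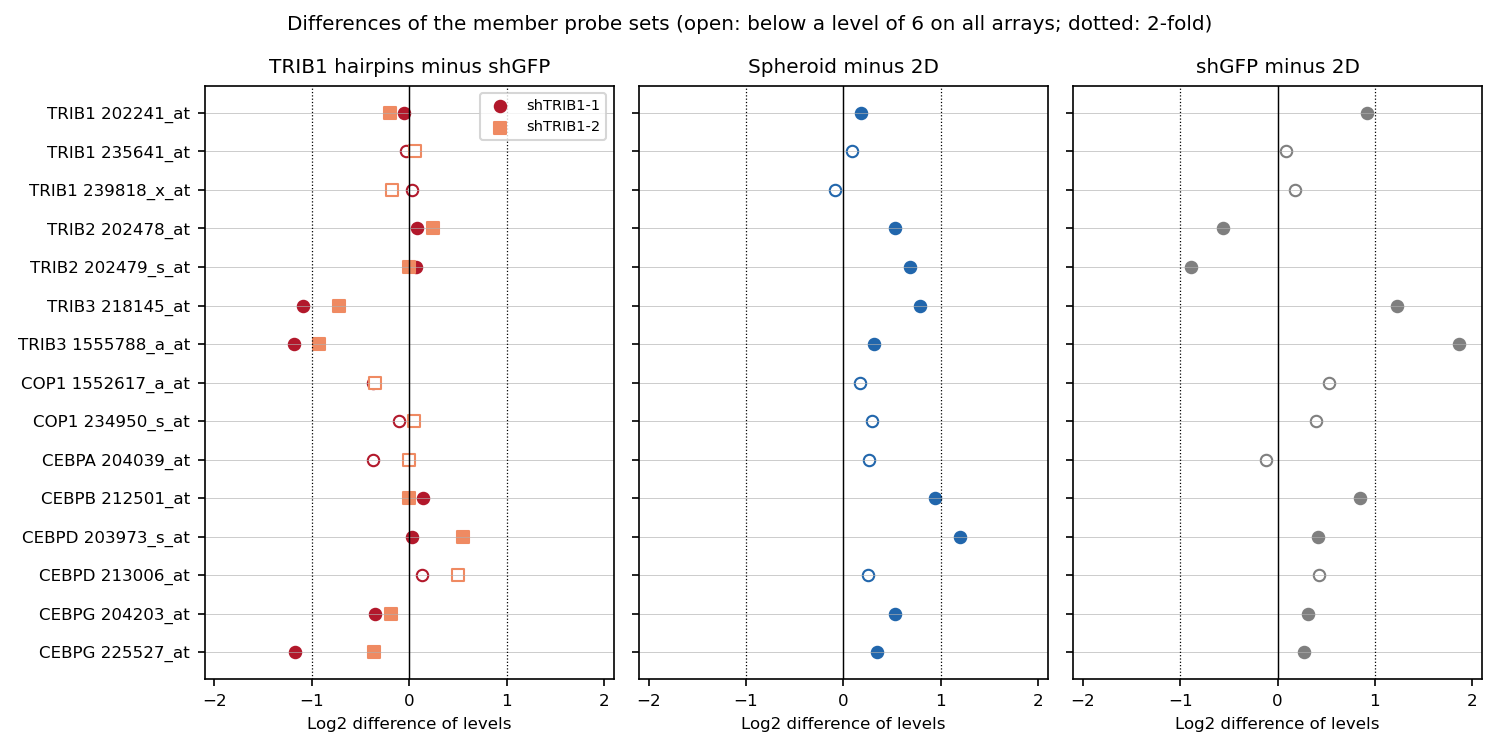
Log2 difference of levels (x axis) for the 15 probe sets (y axis) of the TRIB1 hairpin arrays minus shGFP (left), spheroid minus 2D (middle) and shGFP minus 2D (right). Open points are probe sets below a level of 6 on all arrays and dotted lines mark 2-fold. Both TRIB3 probe sets lie between -1.18 and -0.72 on the left and at 1.22 and 1.87 on the right, and the 9 filled points in the middle are all above 0.

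COP1, the RING finger ubiquitin ligase that Tribbles proteins recruit, gave low signal on every array. Its leading probe set (1552617_a_at) was at 5.27, 5.30 and 5.65 on the shTRIB1-1, shTRIB1-2 and shGFP arrays, 5.30 in spheroids and 5.12 in 2D. The other (234950_s_at) was between 4.87 and 5.32. Both lay below the filter on all arrays and were left out of the main limma fit. A limma fit without the filter did not call COP1, and the smallest adjusted p among the 8 genes there was 0.514.

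CEBPA, which encodes the substrate C/EBP alpha, was also below the filter on every array. Its single probe set (204039_at) was at 4.43 and 4.80 on the shTRIB1-1 and shTRIB1-2 arrays and 4.80 on the shGFP array. It was at 5.18 in spheroids and 4.92 in 2D. The differences of -0.37 and -0.0063 from shGFP and of 0.26 between spheroid and 2D are all below 2-fold, and the gene was left out of the main limma fit and not called without the filter. No neighbours in the order of its levels were farther apart than the hairpins, at 0.36, while the ends, spheroid and shTRIB1-1, were 0.75 apart.

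CEBPB encodes C/EBP beta, an activator of cytokine and acute-phase genes. Its single probe set (212501_at) was at 12.72 on the shTRIB1-1 array, 12.58 on the shTRIB1-2 array and 12.58 on the shGFP array. It was at 12.67 in spheroids and 11.73 in 2D. The 2D array stood alone, 0.85 below the next, while the other 4 followed each other within the gap of 0.14 between the hairpins. Spheroid exceeded 2D by 0.94 (1.92-fold) and shGFP exceeded 2D by 0.85 (1.80-fold), both read against the same 2D array. The hairpins against TRIB1 differed from shGFP by 0.14 and 0.00, a mean of 0.072 ± 0.10 (SD, n = 2 hairpins), which limma did not call (adjusted p = 0.966). Against 2D alone that mean was 0.92.

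CEBPD encodes C/EBP delta, which responds to inflammatory signals. Its leading probe set (203973_s_at) was at 8.59 on the shTRIB1-1 array, 9.10 on the shTRIB1-2 array and 8.55 on the shGFP array. It was at 9.33 in spheroids and 8.14 in 2D, a difference of 1.20 (2.29-fold). CEBPD was the 1 gene of the 6 above the filter that reached 2-fold between spheroid and 2D, where 10.3% of all genes and 10.5% of probe sets differed by as much and 5.05% of genes were higher by as much. With 2D and shGFP averaged it was below 2-fold, at 0.99. The other probe set (213006_at), between 3.17 and 4.10, differed by 0.25 between spheroid and 2D.

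CEBPD was nearly level with shGFP on the shTRIB1-1 array (a difference of 0.034) and above it on the shTRIB1-2 array (0.55), a mean of 0.29 ± 0.36 (SD, n = 2 hairpins), which limma did not call (adjusted p = 0.966). The gap of 0.51 between the hairpins was wider than the 0.42 between shGFP and 2D. In the order of the 5 arrays no neighbours were farther apart than the hairpins. The ends of that order, spheroid and 2D, were 1.20 apart, which is more than that gap.

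CEBPG encodes C/EBP gamma, a short bZIP protein that pairs with ATF4 and with other C/EBP proteins. The leading probe set (204203_at) was at 8.26 on the shTRIB1-1 array and 8.42 on the shTRIB1-2 array, against 8.61 on the shGFP array. The other (225527_at) was at 7.66 and 8.46 on these arrays, against 8.83 on the shGFP array. Both labelled arrays lay below shGFP on both probe sets, but by unlike amounts.

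The leading CEBPG probe set differed from shGFP by -0.35 and -0.19, a mean of -0.27 ± 0.11 (SD, n = 2 hairpins), and the other by -1.17 and -0.36, a mean of -0.77 ± 0.57 (SD, n = 2 hairpins). Limma called neither (adjusted p = 0.966 for both). In spheroids the leading probe set was at 8.83, against 8.30 in 2D, a difference of 0.53, and the other at 8.91, against 8.56, a difference of 0.35. The shGFP array exceeded 2D by 0.31 and 0.27 on the 2 probe sets. By the leading one, spheroid stood 0.22 above shGFP and shGFP 0.19 above shTRIB1-2, more than the 0.16 between the hairpins. By the other, where the hairpins were 0.81 apart, no neighbours differed by more than that, while the ends, spheroid and shTRIB1-1, were 1.25 apart. Against 2D the labelled arrays differed by -0.037 and 0.12 on the leading probe set and by -0.90 and -0.097 on the other.

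TRIB3 and CEBPG were lower together on the labelled arrays, and their upstream sequence is shown for that reason, with that of ASNS, the asparagine synthetase gene whose pattern lay close to that of TRIB3, and of CHAC1, a gamma-glutamyl cyclotransferase gene induced by ATF4. TRIB2, TRIB3, COP1, CEBPA, CEBPB and CEBPG matched the RefSeq promoter table (GRCh38.p14), with 10 starts among them. TRIB1 and CEBPD did not. In the 250 bases before each start, both strands were searched for TGATGNAA (a C/EBP-ATF element), TGACG (the core of a cyclic AMP response element), TTGCNNAA (a C/EBP site with a free centre), for the TATA box (TATAAA), and for the CCAAT box. Each motif was searched on its own, so overlapping matches would each count. Matches are in capitals in the lines that follow, each written 5′ to 3′ on the strand of the gene.
TRIB3, chr20:381045-381294, plus strand: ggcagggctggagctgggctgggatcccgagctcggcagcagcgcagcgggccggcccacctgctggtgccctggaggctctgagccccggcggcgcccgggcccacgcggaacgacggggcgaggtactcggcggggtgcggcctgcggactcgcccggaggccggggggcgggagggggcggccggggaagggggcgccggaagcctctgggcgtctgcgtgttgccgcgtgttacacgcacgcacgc
CEBPG, first start, chr19:33373459-33373708, plus strand: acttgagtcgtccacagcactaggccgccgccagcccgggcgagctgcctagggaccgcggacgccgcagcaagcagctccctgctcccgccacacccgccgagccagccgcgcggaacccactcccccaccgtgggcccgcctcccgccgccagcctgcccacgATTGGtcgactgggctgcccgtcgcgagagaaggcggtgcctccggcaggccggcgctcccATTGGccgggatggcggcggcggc
ASNS, chr7:97872409-97872658, minus strand: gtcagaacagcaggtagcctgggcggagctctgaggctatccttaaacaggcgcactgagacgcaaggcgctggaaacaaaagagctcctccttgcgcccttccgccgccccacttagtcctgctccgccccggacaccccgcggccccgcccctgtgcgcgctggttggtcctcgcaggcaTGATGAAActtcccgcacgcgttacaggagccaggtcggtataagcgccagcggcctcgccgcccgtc
CHAC1, chr15:40953221-40953470, plus strand: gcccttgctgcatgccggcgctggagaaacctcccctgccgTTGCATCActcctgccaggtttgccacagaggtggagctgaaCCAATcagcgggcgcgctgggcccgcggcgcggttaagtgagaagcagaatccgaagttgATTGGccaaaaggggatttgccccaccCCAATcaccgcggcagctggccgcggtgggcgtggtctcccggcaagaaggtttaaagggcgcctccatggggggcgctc

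TGATGNAA was in 3.14% of the 35116 windows of all genes and in 1 of the 10 windows of these genes, that before the second CEBPG start. There it lies at positions -42 to -35, where -1 is the base just before the start. The 30 bases around it are shown because CEBPG was the 1 gene of the 6 searched with this element in a window.
CEBPG, second start, chr19:33374060-33374089, plus strand: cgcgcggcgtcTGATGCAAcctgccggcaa
In the ASNS window shown the element is at -68 to -61, and in CHAC1 at -209 to -202 on the opposite strand. The window of the other ASNS start lacks it. ATF3, DDIT3, ATF4 and NFIL3 were searched too. ATF3 has the element before 1 start, at -191 to -184, and DDIT3, ATF4 and NFIL3 have none. The TRIB3 window holds none of the 5 motifs, and the first CEBPG window holds CCAAT on the opposite strand at -85 and -24. CCAAT occurs in 32.0% of all windows.

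The windows of CEBPB and CEBPA were the only others of the 6 genes with a match. The second CEBPB start has TGACG at -57, a motif found in 21.2% of all windows, TATAAA at -29, found in 10.7%, and CCAAT at -245. The stretch around TGACG is shown because CEBPB was nearly 2-fold apart between spheroid and 2D.
CEBPB, second start, chr20:50190761-50190790, plus strand: gaggggccggcgTGACGcagcggttgctac
CEBPA has TATAAA at -30. TTGCNNAA was in 9.05% of all windows and in 0 of these 10. A match describes these letters only.

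**Figure D3:**
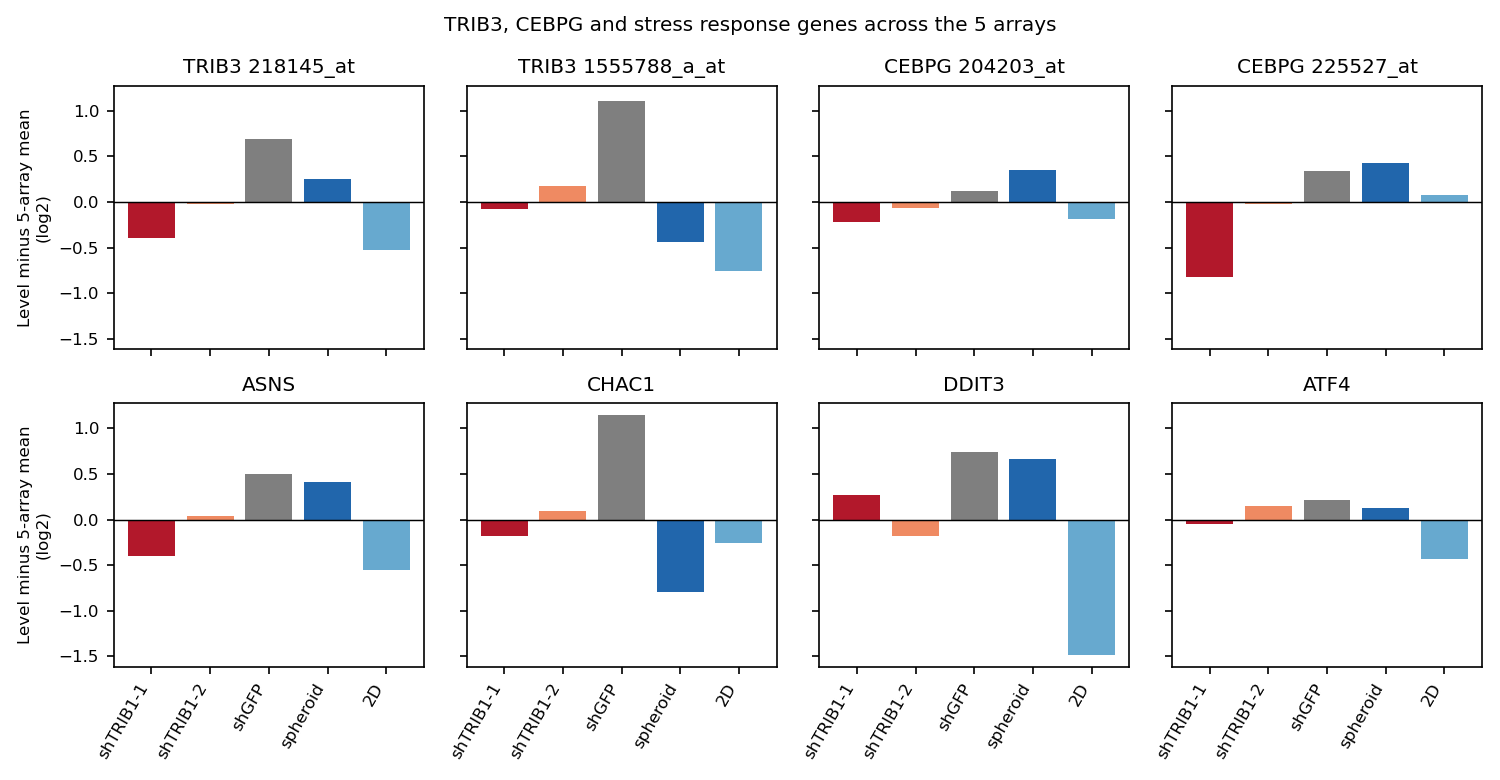
Level minus the mean of the 5 arrays (log2, y axis) for both probe sets of TRIB3 and of CEBPG and the leading probe sets of ASNS, CHAC1, DDIT3 and ATF4, on the 5 arrays (x axis). The shGFP bar is the highest for TRIB3, ASNS, CHAC1, DDIT3 and ATF4. The 2D bar is the lowest for both TRIB3 probe sets, ASNS, DDIT3 and ATF4, and the spheroid bar is the lowest for CHAC1.

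Across the 8 genes, spheroid against 2D had the most uniform direction. All 6 genes above the filter were higher in spheroids, by 0.19 for TRIB1 to 1.20 for CEBPD, whereas 47.3% of all genes were higher by any amount. All 9 of their probe sets were higher too, beside 47.8% of probe sets. The spheroid array also had the lowest actin, GAPDH and thr spike 5′ to 3′ ratios. KRT8, KRT18 and EPCAM were lower there than in 2D. The part of these ratios and markers in the spheroid differences was not tested. The shGFP array was above 2D too for TRIB1 (0.92), TRIB3 (1.22), CEBPB (0.85), CEBPD (0.42) and CEBPG (0.31), and below it for TRIB2 (-0.56). Of all genes, 48.9% were higher in shGFP by any amount, and both contrasts share the 2D array. With 2D and shGFP averaged as the reference, TRIB1 was lower in spheroids, at -0.28. For the hairpins against TRIB1, 3 of the 6 genes (TRIB1, TRIB3 and CEBPG) were lower than shGFP on both arrays, beside 34.7% of all genes. No gene of the 8 was 2-fold different in 1 direction on both, beside 0.447% of genes and 0.422% of probe sets. Between shGFP and 2D, 1 of the 6, TRIB3, reached 2-fold, beside 4.25% of genes and 4.71% of probe sets. The actin, GAPDH and thr spike 5′ to 3′ ratios also differed between these arrays, and their part in the shGFP differences was not tested.

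Genes with the most similar pattern were sought as those with the smallest root mean square distance to a member over the 5 arrays, each gene centred on its own mean. The search used leading probe sets only and covered 10842 other genes at a level of at least 6 on any array. For TRIB1 they were SMDT1 (a distance of 0.061 on the log2 scale), UBR2 (0.068) and GTF2IRD2 (0.075). For TRIB2 they were ANKRD46 (0.036), PCYOX1L (0.049) and the Wnt receptor gene FZD1 (0.080). For TRIB3 they were C17orf67 (0.084), ASNS (0.11) and the O-GlcNAc transferase gene OGT (0.11). These distances describe 5 arrays and carry no test.

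The same search gave LYST (0.036), RBM4 (0.058) and IFT20 (0.070) for CEBPB. It gave ATP8B1 (0.046), RAB26 (0.085) and HMBOX1 (0.088) for CEBPD, and AUP1 (0.032), SDAD1 (0.044) and DHPS (0.047) for CEBPG. No member was among the 3 nearest genes of another. ATF4, the stress factor, was 76th of 10842 for TRIB3 (a distance of 0.28), and CEBPG was 159th (0.31). CHAC1 was 6916th for TRIB3, DDIT3 7426th and ATF3 10431st, and TRIB3 was 5661st for CEBPG, so the stress genes drawn beside TRIB3 did not all lie near it. TRIB1 and TRIB2 were far apart, at 0.74.

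The other parts of the COP1 ligase and its adaptors showed no 2-fold difference in spheroids or on both labelled arrays. Of all genes, 10.3% and 0.447% differed by as much in these comparisons, so none among so few genes is little information. Of 8 listed genes 7 passed the filter, COP1 itself being the exception, and their median difference was -0.14 between spheroid and 2D, against -0.0083 over all genes. The ligase scaffold gene CUL4B was lowest in spheroids (9.93 against 10.47 in 2D, a difference of -0.54). DET1, which links COP1 to the ligase, was highest (6.19 against 5.79, a difference of 0.40). For the hairpins against TRIB1 the list median was 0.016, against -0.027 over all genes. CUL4A, the other scaffold gene, was lowest by mean, at 9.47 and 8.25 on the shTRIB1-1 and shTRIB1-2 arrays, against 9.57 on the shGFP array. Its differences were -0.10 and -1.33, so it was low on the shTRIB1-2 array alone, and the median over its 4 probe sets was -0.19. CUL4B was highest, with differences of 0.50 and -0.0094.

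Genes of proteins that COP1 targets were mixed. Of 10 listed, 8 passed the filter, with a median of -0.33 between spheroid and 2D, 3 higher and 5 lower, beside 47.3% of all genes higher. JUN, the AP-1 subunit, was highest, at 10.28 in spheroids and 9.64 in 2D, a difference of 0.64. ETS1 was lowest, at 8.86 in spheroids and 9.76 in 2D, a difference of -0.91 (-1.36 as the median over its 3 probe sets).

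JUN was also the highest of this list with the hairpins against TRIB1, at 11.39 and 11.38 on the shTRIB1-1 and shTRIB1-2 arrays, against 10.74 on the shGFP array. The differences were 0.66 and 0.64, nearly equal, and limma did not call JUN (adjusted p = 0.966), though it was among the 599 probe sets at an unadjusted p under 0.05. JUN on the 2D array was lower still, 1.10 below shGFP. The ETS factor gene ETV4 was lowest, with differences of -1.07 and -0.11. The list median was 0.037, with 4 of the 8 genes higher and 2 lower on both labelled arrays, beside 25.0% and 34.7% of all genes.

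Among kinases and factors that Tribbles proteins bind, DDIT3, the stress factor CHOP, was the 1 gene of 8 with a 2-fold difference between spheroid and 2D, beside 10.3% of all genes. It was at 10.65 in spheroids and 8.51 in 2D, a difference of 2.14. AKT2, one of the AKT kinase genes, was lowest at -0.41. The list median was 0.089. With the hairpins against TRIB1 DDIT3 was the lowest of the list, at 10.25 and 9.80, against 10.73 on the shGFP array, differences of -0.47 and -0.92, and AKT2 the highest by mean at 0.11. Here 0 of 8 genes were 2-fold different on both arrays, beside 0.447% of all genes, and the median was -0.028. As with TRIB3, shGFP was far above 2D for DDIT3, by 2.22.

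Other bZIP factors that can pair with C/EBP proteins were higher in spheroids in 7 of 7 cases above the filter (of 12 listed), with a median of 0.69, beside 47.3% of genes higher by any amount. This rests on the leading probe sets. As medians over each gene's probe sets, 5 of the 7 were higher and 2, TEF and ATF5, were lower, at -0.048 and -0.026, and the list median was 0.56. At least 2-fold higher were 3 of the 7, beside 5.05% of genes. They were DDIT3, ATF3 and NFIL3. ATF3, an early stress factor, was at 8.67 in spheroids and 6.70 in 2D, a difference of 1.97 (1.05 as the median over its 3 probe sets). NFIL3, a repressor of the same class, was at 9.58 in spheroids and 7.80 in 2D, a difference of 1.78. ATF5 differed least, by 0.045. The shGFP array also exceeded 2D for all 7, by up to 2.65 for ATF3, beside 48.9% of all genes higher by any amount, and both contrasts share the 2D array. With the hairpins against TRIB1 none of the 7 was 2-fold different on both arrays, beside 0.447% of all genes. The list median was 0.025, against -0.027 over all genes. NFIL3 was the highest by mean, with differences of 0.28 and 0.38, and DDIT3 the lowest.

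C/EBP target genes held the widest differences between spheroid and 2D. Of 20 listed, 17 had a probe set, 11 passed the filter, and 8 of the 11 were at least 2-fold higher in spheroids, beside 5.05% of all genes. S100A8 and IL6 passed only through the spheroid array, so the filter favours genes that are high there. Over all 17 genes without the filter, 9 were at least 2-fold higher, beside 3.14% of all genes. With the filter set on the 2D array alone, 6 of 9 were, beside 3.66% of all genes. Like the other lists, this one was chosen with earlier results of these data known, so the shares beside it are descriptive only. The fatty acid carrier FABP4 was at 12.92 in spheroids and 7.65 in 2D, a difference of 5.27. The calprotectin subunit gene S100A8 was at 8.88 and 4.63 (a difference of 4.26, or 2.28 as the median of its probe sets), and the siderophore-binding LCN2 at 10.46 and 6.66 (3.81), with the spheroid level given before the 2D level. These 3 genes were the most different of the list.

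Of the inflammatory targets, IL1B was at 9.88 in spheroids and 6.60 in 2D (3.28), IL6 at 6.53 and 5.16 (1.38), and CXCL8 at 9.76 and 8.62 (1.14). The other calprotectin subunit gene S100A9 differed by 1.33 and the lipase inhibitor gene G0S2 by 1.20. PPARG, a regulator of fat storage genes, was lowest at -0.83. The median difference was 1.02 over all 17 genes, against 0.0 over all genes without the filter. The shGFP array exceeded 2D as well for IL6 and CXCL8, at 6.51 and 10.54, by 1.36 and 1.92. At least 2-fold higher in shGFP than in 2D were 4 of 10 targets, beside 2.13% of all genes. IL6 passed the filter there only through the shGFP array, so the filter favours genes that are high on it. Both contrasts share the 2D array. Between spheroid and 2D, CEBPB and CEBPD, which encode activators of several of these targets, were higher by 0.94 and 1.20, and the PECAM1 marker by 1.96. The other CEBPD probe set, at low levels, differed by 0.25. Between shGFP and 2D, CEBPB and CEBPD were higher by 0.85 and 0.42. Of the 10 targets, 5 were higher in shGFP and 5 lower, near the 48.9% of all genes higher by any amount. The part of CEBPB and CEBPD in the target differences was not tested.

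With the hairpins against TRIB1, 0.0855% of all genes were at least 2-fold lower than shGFP on both arrays. CHAC1 was the 1 C/EBP target of 10 above the filter with a 2-fold difference in 1 direction on both. It was at 6.98 on the shTRIB1-1 array and 7.25 on the shTRIB1-2 array, against 8.31 on the shGFP array, differences of -1.33 and -1.05, which limma did not call (adjusted p = 0.966). CHAC1 was at 6.91 on the 2D array, so shGFP again stood alone. ASNS, another target shared with ATF4, was at 11.24 and 11.68, against 12.15 on the shGFP array, differences of -0.91 and -0.47. The mean of these was -0.69 on the leading probe set, but -0.29 as the median over its 2 probe sets. FABP4 was highest by mean, yet it differed by -1.27 with shTRIB1-1 and 3.85 with shTRIB1-2. IL6 was higher on both, by 1.58 and 0.90. The list median was 0.20, with 3 of the 10 genes higher and 3 lower on both arrays, beside 25.0% and 34.7% of all genes.

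**Figure D4:**
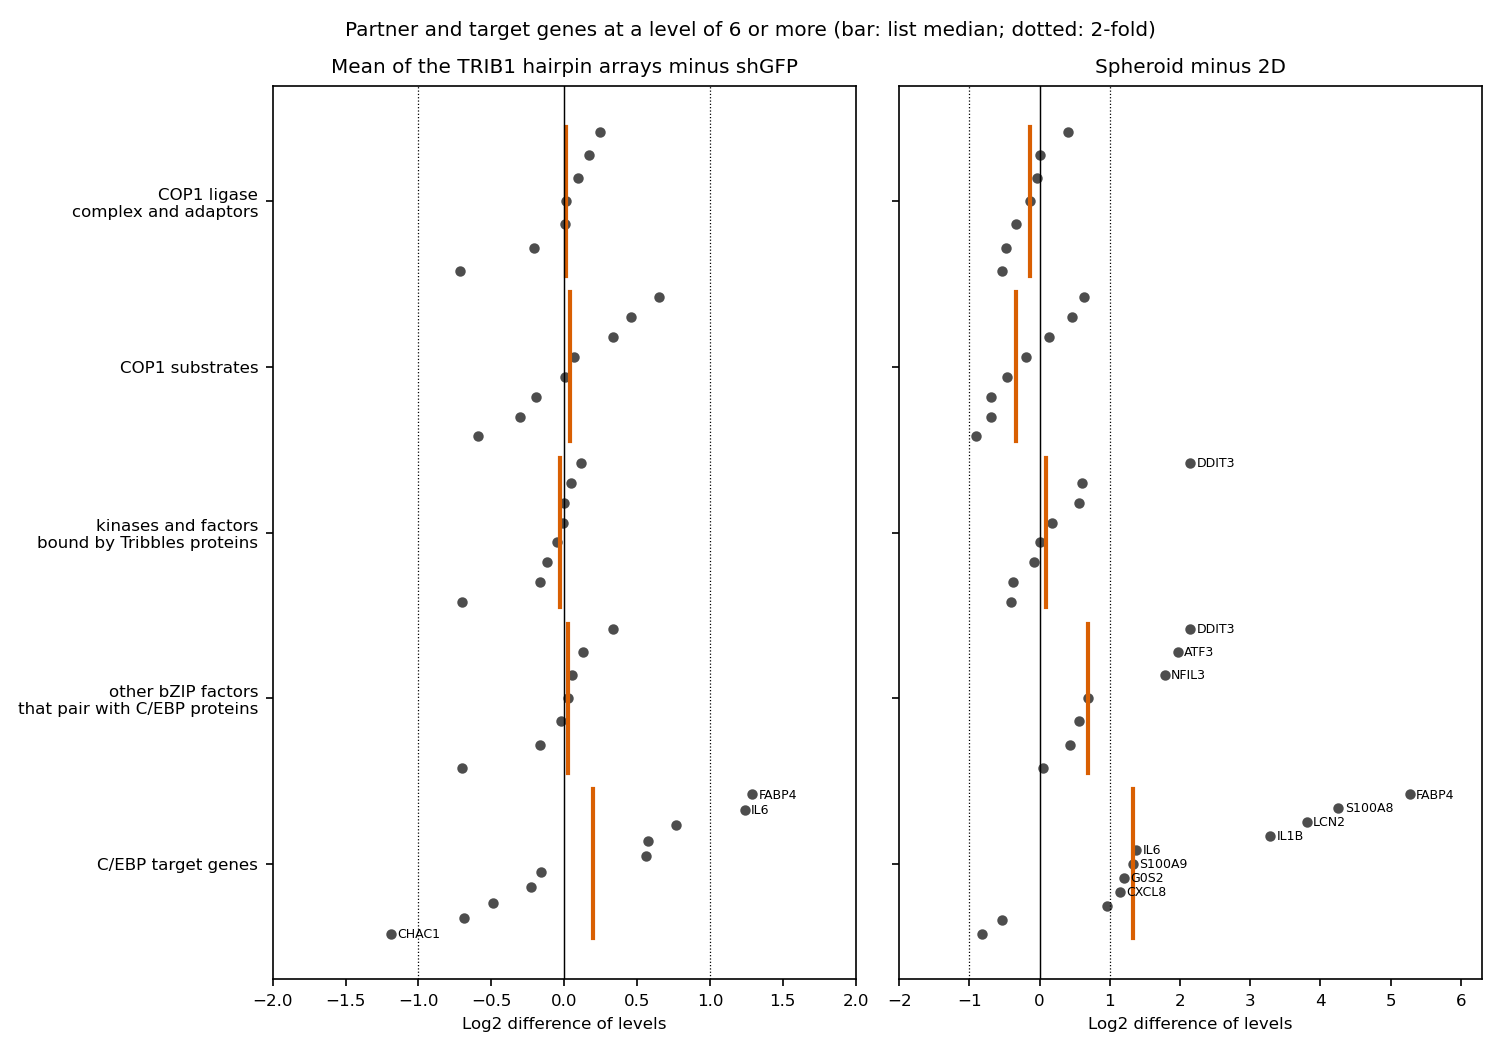
Log2 difference of levels (x axis) for the genes of the 5 partner and target lists (y axis) at a level of at least 6 on any compared array, as the mean of the TRIB1 hairpin arrays minus shGFP (left) and spheroid minus 2D (right). Points are genes, orange bars list medians and dotted lines 2-fold. On the right the C/EBP target genes that passed have a median of 1.33 and the other bZIP factors 0.69, the first with S100A8 and IL6 passing through the spheroid array alone. On the left CHAC1 is named at -1.19, and FABP4 at 1.29 is the mean of hairpins of opposite sign.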

How the data were processed

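RNA of 5 PC-3 samples was hybridised to 1 array each after standard Affymetrix biotin labelling, per the labels' protocols. The authors deposited probe set intensities on a linear scale, made with RMA, per the submitters' processing notes, and the linear scale was read from the values. The labels give no version of RMA. RMA gives all arrays nearly the same distribution, so a shift of most genes would be hidden. Log2 was taken of the deposited intensities with no pseudocount. Of 54675 probe sets, 41097 carried 1 gene symbol in the platform annotation, 41043 of them matched RefSeq by Entrez identifier, and 0 symbols were updated. Probe sets with several symbols (1801) or none were left out.

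Samples were grouped by their titles. A probe set or gene entered a comparison at a level of at least 6 on any compared array. Spheroid against 2D and shGFP against 2D have 1 array each and no test. The 2 TRIB1 hairpin arrays were set against shGFP with limma 3.58.1 (R 4.3.3, intensity trend), adjusted by Benjamini-Hochberg over 18246 probe sets at 0.05, and the fit was tested on simulated data. The number of arrays limits the precision. Python 3.11.15 was used for the rest. Named genes were the 8 members, list genes at least 2-fold different in a comparison or else the highest and lowest of a list, and the 3 nearest patterns. ATF4 was added after its values were seen. Members, lists and motifs were chosen with earlier results of these data known. Alternatives were a median taken across all probe sets of a gene, probe sets ending in _s_at or _x_at left out, a pseudocount of 16, median centring, level filters of 8 and none, other reference arrays, each hairpin left out, and limma without the trend or with 1 probe set per gene.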

Additional observations from a re-analysis of the deposited data

How the results depend on the processing

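The direction of a hairpin difference depended on the reference array. With the mean of shGFP and 2D as the reference, the mean difference of the TRIB1 hairpin arrays was 0.33 for TRIB1 and -0.12 for TRIB2, both of the opposite sign to that against shGFP. With 2D alone, a choice made after seeing the data, it was 0.79 for TRIB1, -0.40 for TRIB2, 0.32 for TRIB3, 0.16 for COP1 and 0.043 for CEBPG, again opposite, as follows from the level of shGFP relative to 2D. As the median over its 3 probe sets, 2 of them near background, TRIB1 differed by 0.030 for the hairpins and 0.12 for shGFP against 2D. TRIB1 in spheroids was at -0.28 against the mean of 2D and shGFP. With either hairpin left out, the TRIB1 difference ranged from -0.20 to -0.055, and the number of the 8 genes 2-fold different from shGFP ranged from 0 to 1 (TRIB3 with shTRIB1-1 alone). The count of 1 gene 2-fold different between spheroid and 2D became 0 as the median over probe sets, 0 without probe sets ending in _s_at or _x_at, since these hold the leading CEBPD probe set, and 0 against the mean of 2D and shGFP. Limma called 0 members in the main setting and under every alternative that gave a fit, with 5 to 8 of the genes tested and their smallest adjusted p between 0.514 and 0.997. Leaving out a hairpin leaves no residual degrees of freedom, so that gave values only. For the 7 genes other than TRIB1, 95 of 119 alternative values kept their side of the test or moved by less than the SD between the hairpin arrays, 19 moved by more, among them COP1 in spheroids at -0.088 against 2D and shGFP averaged, and 5 turned as given above. No paired analysis was possible because shGFP, spheroid and 2D have 1 array each and no label ties a sample to one of another group. The 6 probe sets below a level of 6, those of COP1 and CEBPA among them, were tested only in the fit without the filter. List medians and counts with no filter, with the filter on 2D alone and over each gene's probe sets were added after seeing the data.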
